A study of Homo sapiens with 12 samples.

Results

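The genes described here are 10 neighbours of CDK4 on chromosome 12 (12q13), chosen by name as a segment that is known to be amplified in some fusion-positive rhabdomyosarcomas: KIF5A, B4GALNT1, OS9, AGAP2, TSPAN31, CDK4, METTL1, TSFM, AVIL and CTDSP2, in order of position. The choice was made with earlier results of these data known. All 10 were found once each among the 65975 gene identifiers of the expression table. RNA was sequenced in 12 libraries, 4 groups of 3. RD cells, an established fusion-negative (FN-RMS) rhabdomyosarcoma line, and Rh30 cells, an established fusion-positive (FP-RMS) line, carried a control hairpin (Scramble) or 1 hairpin against KDM3A (KDM3A-sh2), both stably expressed. KDM3A is a Jumonji-domain histone demethylase that removes methyl groups from lysine 9 of histone H3. Each subtype was thus represented by 1 cell line and the knockdown by 1 shRNA, and a difference between the lines cannot be told apart from a difference between the subtypes. By the study's methods RD cells were grown in DMEM and Rh30 cells in RPMI, so an effect of the medium cannot be told apart either. Nothing in the labels or the study's methods states that replicate libraries were grown as separate cultures. P-values therefore measure only the spread between these libraries, which may be technical. Replicate numbers follow the sample titles. In the second name that each library carries, the final number runs from 1 to 3 in the other groups but is 1 in all 3 Rh30 Scramble libraries, so whether those 3 share a source cannot be told from the names, although their values differ. Expression was given as FPKM, fragments scaled to exon length and to the size of the library. DNA copy number was not measured in these data, so the word amplified is background and not a result.

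CDK4 encodes the cyclin-dependent kinase that pairs with D-type cyclins to phosphorylate RB family proteins, which releases E2F transcription factors and lets cells enter S phase. Amplification of a chromosome segment usually carries several neighbouring genes along with the driver. In rhabdomyosarcoma, a tumor of cells with skeletal muscle features, extra copies around CDK4 are known mainly from the fusion-positive subtype. The neighbours have unrelated roles. OS9 is a lectin of endoplasmic reticulum quality control, METTL1 methylates guanosine in tRNA, TSFM is a mitochondrial translation elongation factor, CTDSP2 is a small phosphatase acting on the RNA polymerase II tail, TSPAN31 is a tetraspanin membrane protein, AGAP2 is a GTPase-activating protein for ARF GTPases, AVIL (advillin) binds actin, B4GALNT1 makes the complex gangliosides GM2 and GD2, and KIF5A is a neuronal kinesin heavy chain.

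The 10 genes lie within 0.297 Mb of chromosome 12 in GRCh38, from 57549998 to 57846739 by the GENCODE 29 annotation. CDK4 lies on the minus strand, at chr12:57747727-57756013. Its exons overlap those of TSPAN31 on the plus strand (chr12:57738013-57750211) over 1369 bases, which is 43.2% of the exon bases of CDK4 and 25.4% of those of TSPAN31. Among the other members, METTL1 shares 506 exon bases with EEF1AKMT3, AGAP2 shares 866 with its antisense gene AGAP2-AS1, TSFM shares 303 with AVIL and B4GALNT1 shares 2136 with SLC26A10, in each case on opposite strands. On the same strand, TSFM shares 578 exon bases with AC025165.3 and METTL1 shares 107 with CYP27B1. The libraries were directional, but the strand setting used to compute FPKM is not given in the sources used here. Reads from exons shared between opposite strands may therefore not have been told apart. Reads from exons shared on the same strand cannot be told apart by strand. CDK4 also has a processed pseudogene, CDK4P1, on chromosome 1.

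The promoters of CDK4 and AVIL are shown because CDK4 had the highest level of the 10 genes and AVIL the largest difference between the lines. The sequences are from RefSeq (GRCh38.p14), 250 bases before to 50 after the annotated start, on the strand of the gene, and cover chr12:57752261-57752560 for CDK4 and chr12:57818685-57818984 for AVIL. Capitals mark 2 letter strings that read the same on both strands, CACGTG, the form of E-box bound by MYC family proteins, and CAGCTG, a form bound by muscle regulatory factors such as MYOD1.
CDK4: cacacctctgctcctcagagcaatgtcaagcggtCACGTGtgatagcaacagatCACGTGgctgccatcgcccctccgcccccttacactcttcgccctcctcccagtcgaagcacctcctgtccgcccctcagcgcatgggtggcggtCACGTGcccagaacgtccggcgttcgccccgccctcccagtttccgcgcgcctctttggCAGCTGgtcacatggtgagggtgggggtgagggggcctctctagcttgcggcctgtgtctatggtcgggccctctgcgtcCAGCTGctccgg
AVIL: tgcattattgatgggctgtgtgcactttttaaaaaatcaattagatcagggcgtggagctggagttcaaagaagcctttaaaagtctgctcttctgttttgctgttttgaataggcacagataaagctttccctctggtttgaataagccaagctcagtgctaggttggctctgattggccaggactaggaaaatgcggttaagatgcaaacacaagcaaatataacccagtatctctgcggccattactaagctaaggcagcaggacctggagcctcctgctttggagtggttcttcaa
The CDK4 promoter held 3 CACGTG strings, whose first bases were 216, 196 and 101 bases before the start, and 2 CAGCTG strings. It was 66.0% G or C, with 23 CpG dinucleotides. The AVIL promoter held neither string, was 44.3% G or C and had 3 CpG dinucleotides. RefSeq held 8 promoters for 7 of the 10 genes (METTL1, B4GALNT1 and KIF5A had no entry here). Of these 8, CACGTG was found in that of CDK4 alone, against 7.26% of all 35116 promoters in the table, and CAGCTG in those of CDK4 and CTDSP2, against 17.95% of all. A match to these letters is a description of the sequence and does not show binding.

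Relative depth of the libraries, estimated from the spacing of the lowest values, ran from 0.871 to 1.197. Summed FPKM, which is already scaled to library size and does not measure depth, ran from 1198300 to 1379197 per library. The correlation of log2 values between libraries of 1 group was 0.987 to 0.989. The targeted gene KDM3A was at 33.5 ± 2.5 FPKM in RD Scramble and 12.2 ± 1.1 in RD KDM3A-sh2 (SD, n = 3 each), a log2 difference of -1.39 (limma, adjusted p = 5.0e-05), and at 29.7 ± 2.1 and 14.1 ± 1.2 in Rh30, a log2 difference of -1.02 (adjusted p = 0.000348). Of the 5 skeletal muscle markers examined, MYOD1, MYOG, DES and CDH15 were at 45.3 FPKM or more in every library, and MYF5 was at most 0.0272. With Scramble, MYOD1, CDH15 and MYOG were called higher in Rh30 (log2 differences 2.51, 1.96 and 1.90) and DES lower (-0.98), and their part in the differences between lines was not tested. The epithelial marker CDH1 and the blood marker PTPRC stayed under 0.1 and the endothelial marker PECAM1 reached 1.20 at most. The epithelial marker EPCAM averaged 0.577 in RD Scramble and 0.453 in RD KDM3A-sh2 against 4.64 and 6.03 in the Rh30 groups, so it moved with the line, and its part in the differences between lines was not tested.

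CDK4 was far higher in Rh30 cells. It measured 625.5, 655.5 and 683.9 FPKM in the 3 RD Scramble libraries and 14842.3, 15023.1 and 14118.3 in the 3 Rh30 Scramble libraries. With KDM3A-sh2 it measured 655.9, 631.5 and 641.6 FPKM in RD and 13784.7, 14363.0 and 13721.7 in Rh30. The lowest Rh30 library was thus far above the highest RD library with either shRNA. In each of the 6 Rh30 libraries CDK4 had the 4th highest FPKM of all genes, while in RD its place was between 220 and 250. The ratio of means was 22.4 with Scramble and 21.7 with KDM3A-sh2. The log2 difference between the lines, Rh30 minus RD, on the scale log2(FPKM + 1), was 4.48 ± 0.04 (SE, n = 3 against 3) with Scramble and 4.44 ± 0.03 with KDM3A-sh2 (limma, adjusted p = 4.678e-09 and 3.512e-09). CDK4 transcripts made up 1.01% to 1.11% of summed FPKM in Rh30 libraries and 0.0511% to 0.0551% in RD libraries. In bulk RNA, a change in the share of cells that express a gene and a change in RNA per cell cannot be told apart.

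Of the 10 genes, 9 were higher and 1 was lower in Rh30 Scramble than in RD Scramble, all past an adjusted p of 0.05 in limma. Over all 18357 genes tested, 35.0% were called higher and 39.6% lower, so a call by itself is common in this comparison. A call with a log2 difference of at least 1 was made for 9 of the 10 genes, against 12.5% of all genes, and with a difference of at least 3 for 7 of the 10, against 1.55%. Since the genes were chosen with earlier results of these data known, these shares are a description and not an independent test. The median log2 difference was 3.68 over the 10 genes and -0.04 over all genes. The lines were also compared in the 6 KDM3A-sh2 libraries, which share no library with the Scramble comparison. There 9 of the 10 genes were again called higher and 1 lower, against 37.7% and 40.3% of the 18669 genes tested. The counts for differences of at least 1 and at least 3 were 9 and 7, against 16.1% and 1.63% of all genes, and the medians were 3.76 and -0.02. When values were rescaled to TPM, the median of all genes moved from -0.04 to -0.14 with Scramble and from -0.02 to -0.18 with KDM3A-sh2, shifts that are small beside the differences of the 10 genes.

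**Figure D1:**
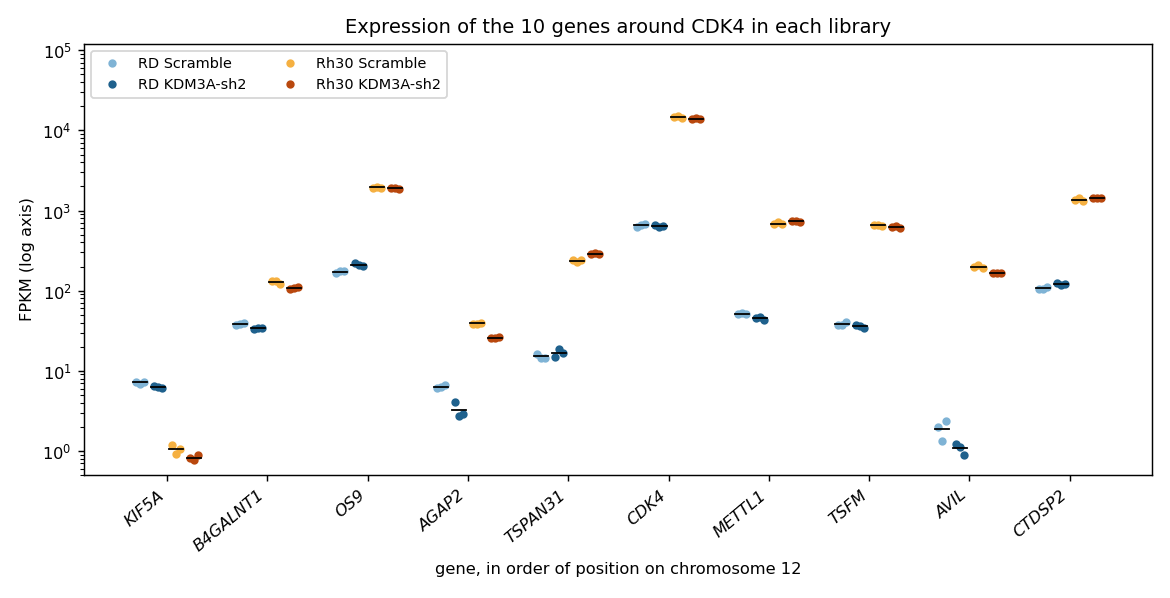
FPKM (log axis) of the 10 genes, in order of position on chromosome 12, in each of the 12 libraries. Points are libraries, colored by group, and black lines are group means. All Rh30 points lie above all RD points for every gene but KIF5A, where all lie below, and CDK4 stands highest in both lines.

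OS9, the next most abundant of the genes, rose with CDK4 across the lines. It was at 166.6, 174.7 and 174.7 FPKM in RD Scramble and at 1934.7, 1985.0 and 1912.2 in Rh30 Scramble, a log2 difference of 3.49 ± 0.03 (SE), and the groups did not overlap. OS9 acts with SEL1L and SYVN1, the adaptor and ubiquitin ligase that export misfolded glycoproteins for degradation, and has a related lectin, ERLEC1. SEL1L was lower in Rh30 Scramble (18.3 against 34.6 FPKM, log2 difference -0.87, adjusted p = 0.00017 in limma), as were ERLEC1 (28.8 against 37.1 FPKM) and SYVN1 (25.6 against 30.9 FPKM). The level of OS9 over that of SEL1L was 4.43 to 5.94 in the RD Scramble libraries and 102.0 to 112.7 in the Rh30 Scramble libraries.

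METTL1 and TSFM showed the same contrast with their protein partners. METTL1 was at 50.8, 52.9 and 51.3 FPKM in RD Scramble and at 671.9, 713.5 and 672.0 in Rh30 Scramble, a log2 difference of 3.70 ± 0.04. WDR4, the second subunit of the METTL1 methyltransferase, was at 28.96 and 36.94 FPKM, a log2 difference of 0.34 (limma, adjusted p = 0.00399). The ratio of METTL1 to WDR4 was 1.67 to 1.93 in RD Scramble and 17.7 to 19.9 in Rh30 Scramble. TSFM was at 37.0 to 40.3 FPKM in RD Scramble and at 649.9 to 659.4 in Rh30 Scramble, a log2 difference of 4.07 ± 0.04. TUFM, the elongation factor that TSFM recharges, differed little and in the other direction, with 259.1 FPKM in RD and 230.1 in Rh30 (log2 difference -0.17, adjusted p = 0.00183). TSFM was therefore below TUFM in RD Scramble, at a ratio of 0.142 to 0.154, and above it in Rh30 Scramble, at 2.80 to 2.88.

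CTDSP2 was at 105.2 to 111.2 FPKM in RD Scramble and 1323.1 to 1421.3 in Rh30 Scramble, a log2 difference of 3.66 ± 0.04. Its relatives on other chromosomes did not share this. CTDSP1 was at 77.2 and 68.2 FPKM and missed the threshold (log2 difference -0.18, adjusted p = 0.0677 in limma), and CTDSPL was lower in Rh30 (8.69 against 16.5 FPKM, log2 difference -0.85). A microRNA gene, MIR26A2, lies within an intron of CTDSP2, and it was listed at 0 in this mRNA table.

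TSPAN31 was at 16.4, 14.3 and 14.6 FPKM in RD Scramble and at 239.0, 230.9 and 238.7 in Rh30 Scramble, a log2 difference of 3.88 ± 0.06. The groups did not overlap. It was well below its overlapping neighbour in every library, with CDK4 34.0 to 46.8 times higher in RD and 47.4 to 65.1 times higher in Rh30. Since the exons of the 2 genes overlap, part of the FPKM given to TSPAN31 may have come from CDK4 transcripts, and this was not tested. Its relative TSPAN13 was lower in Rh30 (1.75 against 3.07 FPKM with Scramble).

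AVIL, at low levels in RD, had the largest difference of the 10 genes. It measured 1.97, 1.31 and 2.39 FPKM in RD Scramble and 195.7, 207.9 and 190.9 in Rh30 Scramble. The ratio of means was 104.7, and the log2 difference, which the added 1 FPKM makes smaller at such low levels, was 6.12 ± 0.14. Of the other members of the gelsolin and villin family examined, gelsolin (GSN) moved in the opposite direction, from 265.1 FPKM in RD Scramble to 25.1 in Rh30 Scramble (log2 difference -3.35, adjusted p = 4.212e-08 in limma), and VIL1 and SCIN were under 0.12 FPKM in all 12 libraries. AVIL was thus at less than 0.01 of the level of GSN in every RD Scramble library and at 7.23 to 8.32 times its level in the Rh30 Scramble libraries.

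AGAP2 and B4GALNT1 differed less. AGAP2 was at 6.18, 6.22 and 6.59 FPKM in RD Scramble and at 38.2, 38.8 and 39.8 in Rh30 Scramble (log2 difference 2.45 ± 0.05). The antisense gene AGAP2-AS1, which overlaps AGAP2 on the other strand, differed more, with 8.38 ± 0.70 and 185.0 FPKM (log2 difference 4.31, adjusted p = 3.359e-08 in limma). B4GALNT1 was at 37.0, 38.8 and 39.7 FPKM in RD Scramble and at 131.3, 130.4 and 121.1 in Rh30 Scramble (log2 difference 1.70 ± 0.05). In its pathway, UGCG makes glucosylceramide, B4GALT5 and B4GALT6 turn it into lactosylceramide, ST3GAL5 makes GM3 from that and ST8SIA1 makes GD3 from GM3. B4GALNT1 makes GM2 from GM3 and GD2 from GD3. ST8SIA1 was at 0.262 FPKM in RD Scramble and 13.0 in Rh30 Scramble (log2 difference 3.46, adjusted p = 5.577e-07). UGCG and ST3GAL5 were lower in Rh30, with 99.2 against 155.7 FPKM and 73.7 against 122.4 FPKM. B4GALT5 was called slightly higher in Rh30 (131.6 against 121.1 FPKM, log2 difference 0.12). So was B4GALT6, at low levels (2.11 against 0.835 FPKM, log2 difference 0.72).

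KIF5A was the exception. It measured 7.29, 6.92 and 7.31 FPKM in RD Scramble and 1.18, 0.909 and 1.06 in Rh30 Scramble, a log2 difference of -1.997 ± 0.094 (limma, adjusted p = 1.594e-06), and with KDM3A-sh2 the difference was -1.999. Every Rh30 library lay below every RD library. The neuronal relative KIF5C was also lower in Rh30 (7.67 against 22.2 FPKM, log2 difference -1.42), while the ubiquitous KIF5B was higher (193.5 against 112.7 FPKM, log2 difference 0.78). KIF5A lies first of the 10 genes on the chromosome, and its RNA level goes against the label of a gene raised together with CDK4.

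The order of levels within a group was close in both lines. CDK4, OS9, CTDSP2 and METTL1 took the first 4 places in all 4 groups. In RD Scramble B4GALNT1 (38.5 FPKM) and TSFM (38.1 FPKM) followed and their libraries overlapped. In both Rh30 groups no 2 genes next to each other in the order overlapped, and AVIL, at the last place in RD, stood at place 7, between TSPAN31 and B4GALNT1. The 10 genes together made up 0.0862% to 0.0939% of summed FPKM in RD libraries and 1.39% to 1.51% in Rh30 libraries.

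The neighbourhood was followed gene by gene to ask how far the difference reached. The annotation holds 118 protein-coding genes whose start lies within 3 Mb of that of CDK4, of which 115 were listed and 83 were tested in the Scramble comparison. Of these 83, 52 were called higher and 16 lower in Rh30, against 35.0% and 39.6% of all genes. A call at least 1 log2 unit higher was made for 35, against 12.5% of all genes. The genes of this kind formed an unbroken run of 18 from PIP4K2C to XRCC6BP1 (named ATP23 in GENCODE), chr12:57591174-57959148, over 0.368 Mb. The run held all 9 members that were higher, with log2 differences from 1.70 (B4GALNT1) to 6.12 (AVIL) and a median of 3.68. Among the other genes inside the span of the 10 members, 8 of 8 tested were called higher, against 35.0% of all genes. Their median was 3.07 and their range from 2.09 to 5.03. Some of them, SLC26A10, EEF1AKMT3, AC025165.3 and CYP27B1, share exon bases with members. Part of their FPKM may have come from transcripts of members, and this was not tested.

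KIF5A (-1.997) and DCTN2 (-0.66), which lie side by side, stood immediately to the left of this run. Beyond them the differences were high again. A run of 6 genes from INHBE to MBD6 and a run of 4 genes from NXPH4 to STAC3 were at least 1 log2 unit higher, with medians of 3.03 and 4.06, separated by R3HDM2 (log2 difference 0.21, adjusted p = 0.207 in limma). The largest differences in the neighbourhood were those of AVIL (6.12), CYP27B1 (5.03), which encodes the enzyme that activates vitamin D, and NXPH4 (4.84), among genes with at least 10 FPKM in 1 group and leaving out GLI1 and DDIT3, which are not described here. STAC3, a muscle calcium channel partner, was at 152.8 FPKM in RD Scramble and 3013.9 in Rh30 Scramble. The genes DCTN2, R3HDM2, INHBE, MBD6 and STAC3 were picked out here after their values were seen.

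From NXPH4 to XRCC6BP1, a stretch of 0.742 Mb (chr12:57216795-57959148) whose ends were set after the values were seen, 28 of 31 genes tested were at least 1 log2 unit higher in Rh30 Scramble, and the median was 3.49. In the rest of the window 7 of 52 were, close to the 12.5% of all genes, and the median was 0.08. The highest of these was ZBTB39, at 3.21, named after its value was seen. To the left of NXPH4 stood LRP1 (0.68) and then STAT6, the gene with the largest difference in the other direction (-2.09, with 23.0 against 101.5 FPKM). To the right of XRCC6BP1 the only further gene tested was LRIG3 (0.60), 1124 kb from CDK4, so the right end of the high segment could not be placed more closely than the gap between these genes. In the KDM3A-sh2 libraries the same stretch held 27 of 32 genes at least 1 log2 unit higher, with a median of 3.24. Outside it 9 of 52 were, against 16.1% of all genes, and the median was 0.02.

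**Figure D2:**
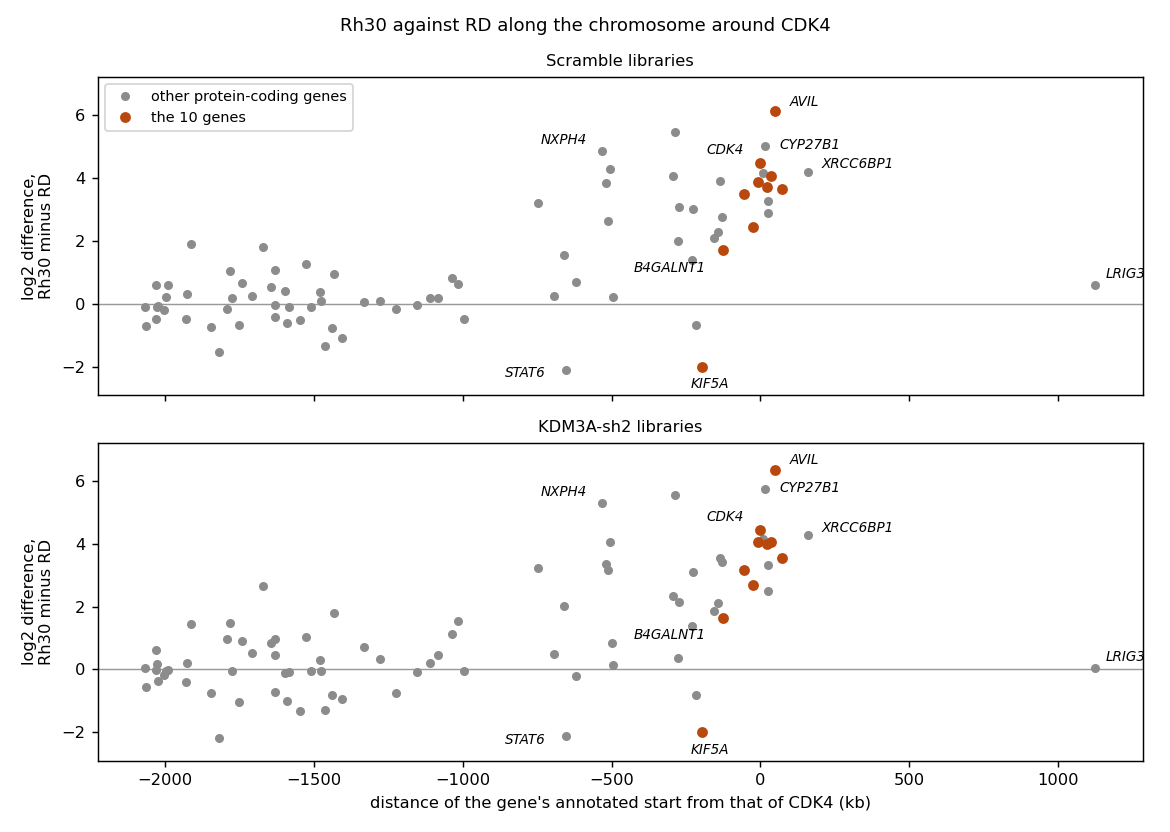
Log2 difference between Rh30 and RD of each tested protein-coding gene within 3 Mb of CDK4 against the distance of its annotated start from that of CDK4 (kb), in the Scramble libraries (top) and the KDM3A-sh2 libraries (bottom). Orange points are the 10 genes and gray points other genes. Most values above 2 lie between NXPH4 and XRCC6BP1, where 28 of 31 genes were at least 1 higher with Scramble, and KIF5A lies below 0 between them.

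The CDK4 pathway was examined with 24 genes: D and E cyclins, CDK6, CDK inhibitors, RB family proteins, E2F factors with their partners, and the kinase chaperone CDC37. In Rh30 against RD with Scramble, 13 of 24 were called higher and 9 lower (35.0% and 39.6% of all genes), with a median log2 difference of 0.29 against -0.04 over all genes. The highest, all below CDK4, were CCND2, a D-type cyclin (220.1 against 51.4 FPKM, log2 difference 2.08), and the activator E2F factors E2F2 (1.94) and E2F1 (1.84). The lowest were the CDK inhibitors CDKN1C (0.265 against 20.0 FPKM, log2 difference -4.05) and CDKN2B (4.39 against 25.9 FPKM, log2 difference -2.34) and the D-type cyclin CCND1 (134.1 against 334.9 FPKM, log2 difference -1.31). RB1 and its relatives RBL1 and RBL2 were each over 1 log2 unit higher. With KDM3A-sh2 the counts were 14 higher and 9 lower of 24, against 37.7% and 40.3% of all genes.

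The level of CDK4 relative to its partners differed accordingly. CDK4 was 1.02 to 1.14 times the summed level of CCND1, CCND2 and CCND3 in RD Scramble and 25.1 to 26.0 times that sum in Rh30 Scramble, while the sum itself was 598.7 to 627.4 FPKM in RD Scramble and 562.1 to 577.5 in Rh30 Scramble. The INK4 inhibitors, which bind CDK4 and CDK6, are encoded by CDKN2A, CDKN2B, CDKN2C and CDKN2D. Relative to the summed level of these genes, CDK4 was at 1.75 to 1.99 in RD Scramble and at 49.2 to 50.9 in Rh30 Scramble. The values are per gene and do not separate different transcripts of a gene such as CDKN2A. CDK6, the kinase most like CDK4, was lower in Rh30 (80.3 against 128.3 FPKM, log2 difference -0.67, adjusted p = 8.814e-05 in limma). The ratio of CDK4 to CDK6 was 4.44 to 5.71 in RD Scramble and 171.2 to 195.9 in Rh30 Scramble. These are ratios of transcript levels per length and not of proteins.

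**Figure D3:**
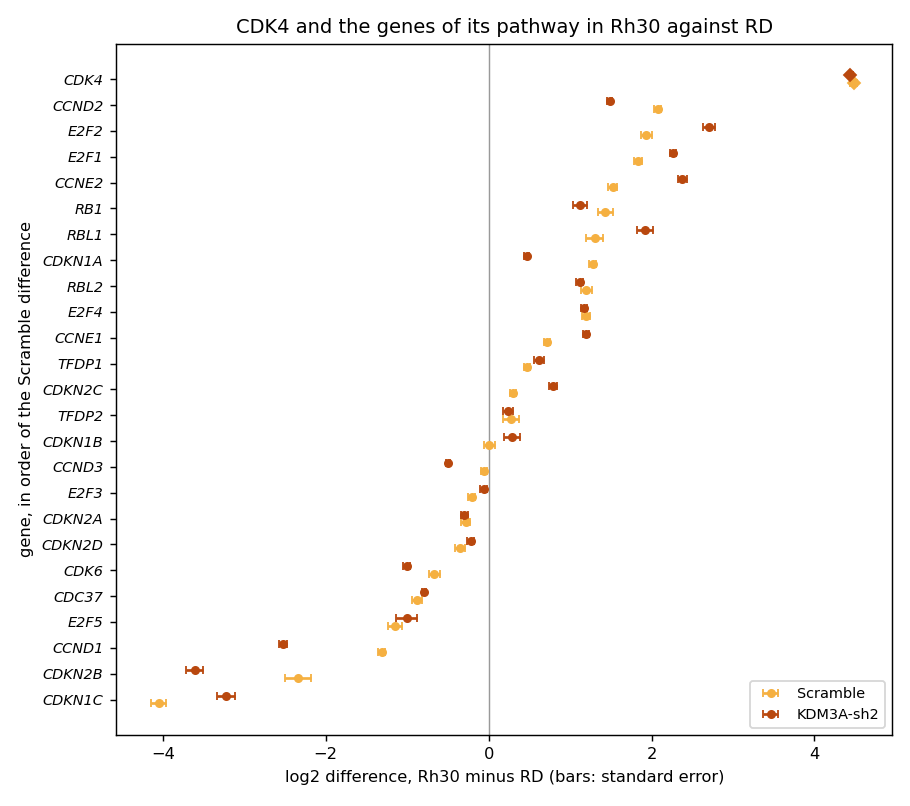
Log2 difference between Rh30 and RD of CDK4 (diamonds) and of 24 genes of its pathway (circles), with Scramble and with KDM3A-sh2. Bars are standard errors. CDK4, at 4.48 and 4.44, lies apart from the genes of the list, of which the highest with Scramble is CCND2 at 2.08 and the lowest CDKN1C at -4.05.

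In the list of 25 relatives and partners of the other members, 22 were tested. In Rh30 with Scramble, 6 were called higher and 10 lower (median -0.17), against 35.0% and 39.6% of all genes. With KDM3A-sh2, 4 were called higher and 13 lower, against 37.7% and 40.3% of all genes. Only ST8SIA1 was over 1 log2 unit higher. Genes whose level followed that of CDK4 most closely over the 12 libraries were KRT17 (Pearson r = 0.9998), TSFM (0.9998), TFCP2 (0.9996), PKDCC (0.9996) and MYCN (0.9994), among 17658 autosomal genes. With 2 lines that differ this much, such an r reflects mainly the gap between the lines, and the 12 libraries are not independent. KRT17 (0.210 FPKM in RD Scramble, 163.1 in Rh30 Scramble) and TFCP2 (0.0717 and 45.9) were near 0 in RD. They passed the filter, a mean of 1 FPKM over the 12 libraries, only through Rh30, so their r says little about levels within RD. TSFM at place 2, CTDSP2 at place 24 and METTL1 at place 32 were the members nearest to CDK4 by this measure, and KIF5A had an r of -0.994.

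Depletion of KDM3A moved these genes little beside the difference between the lines. CDK4 itself showed no call in either line. In RD the log2 difference, KDM3A-sh2 minus Scramble, was -0.03 (95% interval -0.12 to 0.07, limma adjusted p = 0.638), and in Rh30 it was -0.07 (-0.16 to 0.01, adjusted p = 0.185). The libraries of the groups overlapped in both lines. In Rh30 the value became a call on the TPM scale (-0.10, adjusted p = 0.0368). A miss of the threshold does not show that the level was unchanged. On the log2(FPKM + 1) scale both intervals lay within 0.16 log2 units of 0, and they hold for these libraries only. The 95% intervals are from limma and rest on 3 libraries a group.

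In RD, 2 of the 10 genes were called higher and 3 lower with KDM3A-sh2, against 21.6% and 19.5% of the 17988 genes tested. The groups did not overlap for 7 of the 10, against 53.4% of all genes. In Rh30, 1 of the 9 genes tested was called higher and 3 lower, against 15.3% and 13.2% of 17803 genes, and groups did not overlap for 7 of 9, against 45.8%. KIF5A was not tested in Rh30, where its mean was under 1 FPKM. The median log2 difference was -0.12 over the members and 0.01 over all genes in RD, and -0.07 and 0.03 in Rh30.

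AGAP2 and B4GALNT1 were called lower in both lines. AGAP2 fell in RD from 6.18, 6.22 and 6.59 FPKM to 4.04, 2.71 and 2.85 (log2 difference -0.82 ± 0.13, limma adjusted p = 0.00296), and in Rh30 from 38.2, 38.8 and 39.8 to 25.7, 26.0 and 26.1 (-0.57 ± 0.04, adjusted p = 0.000302). The groups were apart in both lines. The antisense AGAP2-AS1 went the other way in Rh30, from 185.0 to 244.5 FPKM (log2 difference 0.40, adjusted p = 0.00478), and in RD it had a difference of 0.23 that missed the threshold (adjusted p = 0.0571). The relative AGAP1 on another chromosome also fell in both lines, by 0.76 in RD and by 0.75 in Rh30 on the log2 scale.

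B4GALNT1 had a log2 difference of -0.18 ± 0.05 in RD (32.8, 34.3 and 34.6 FPKM with KDM3A-sh2, limma adjusted p = 0.0216) and of -0.24 ± 0.04 in Rh30 (106.3, 107.3 and 110.2 FPKM, adjusted p = 0.00811). The call in RD was lost without replicate 2 or replicate 3 of RD Scramble or without replicate 1 of RD KDM3A-sh2 (adjusted p = 0.0672, 0.0660 and 0.0724). AVIL was called lower in Rh30, with 168.1, 165.0 and 168.0 FPKM against 190.9 or more with Scramble (log2 difference -0.24 ± 0.04, adjusted p = 0.00589), but not when all 12 libraries shared 1 fit (adjusted p = 0.129). In RD AVIL was at 1.22, 1.11 and 0.886 FPKM with KDM3A-sh2, a log2 difference of -0.47 that missed the threshold (adjusted p = 0.0745) and passed it without replicate 2 of RD Scramble (-0.62, adjusted p = 0.032) and in the fit of all 12 libraries (adjusted p = 0.00704).

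TSPAN31 was the only member called higher in Rh30. Its Scramble libraries lay between 230.9 and 239.0 FPKM, and with KDM3A-sh2 it was at 289.8, 291.3 and 289.6 (log2 difference 0.30 ± 0.03, limma adjusted p = 0.000879). In RD its libraries overlapped (14.8, 18.6 and 16.5 FPKM with KDM3A-sh2, log2 difference 0.13, adjusted p = 0.324). The ratio of CDK4 to TSPAN31 in Rh30 was 59.1 to 65.1 with Scramble and 47.4 to 49.3 with KDM3A-sh2, so the genes that share exons did not move together. MARCH9, the next gene to CDK4 on its other side, fell in both lines (log2 differences -0.48 in RD and -0.50 in Rh30, adjusted p = 0.00232 and 0.000193).

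OS9 and CTDSP2 were called higher in RD. OS9 rose to 219.6, 209.0 and 205.1 FPKM with KDM3A-sh2 (log2 difference 0.29 ± 0.04, limma adjusted p = 0.00126) and CTDSP2 to 125.5, 119.3 and 122.2 FPKM from 105.2 to 111.2 (0.19 ± 0.04, adjusted p = 0.00824). In Rh30 neither was called, with log2 differences of -0.04 (adjusted p = 0.346) and 0.06 (adjusted p = 0.247). METTL1 was called lower in RD, with 45.7, 46.9 and 42.5 FPKM (log2 difference -0.20 ± 0.05, adjusted p = 0.0172), a call that was lost without replicate 2 of RD Scramble (adjusted p = 0.0608). In Rh30 METTL1 was at 745.4, 736.0 and 714.8 FPKM, all above the Scramble libraries, a log2 difference of 0.09 that missed the threshold (adjusted p = 0.0935) and reached it without replicate 2 of Rh30 Scramble (0.12, adjusted p = 0.0487).

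TSFM (log2 differences -0.07 in RD and -0.08 in Rh30) was called in neither line, although its Rh30 value became a call on the TPM scale (-0.11, adjusted p = 0.0251 in limma). KIF5A had a difference of -0.17 in RD (adjusted p = 0.0945), which passed the threshold only on unlogged FPKM among the alternatives (adjusted p = 0.0216 in an unmoderated linear model), and went from 1.05 ± 0.14 to 0.820 ± 0.059 FPKM in Rh30 (SD, n = 3 each).

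**Figure D4:**
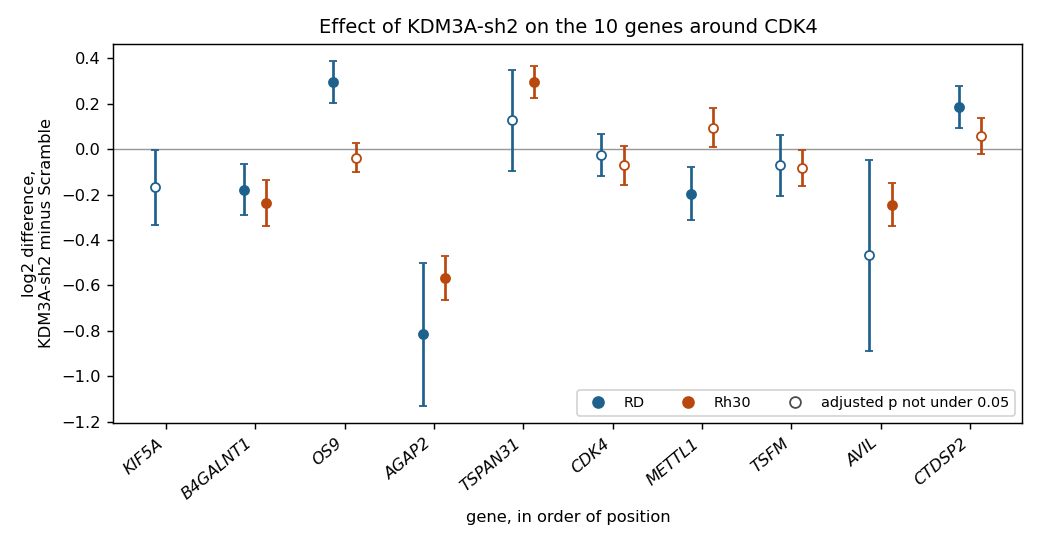
Log2 difference between KDM3A-sh2 and Scramble of the 10 genes in RD (blue) and Rh30 (orange), with 95% intervals from limma. Filled points passed an adjusted p of 0.05. AGAP2 lies lowest in both lines, at -0.82 and -0.57, CDK4 lies near 0 in both, and KIF5A has no Rh30 point because it was not tested there.

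The effect of KDM3A-sh2 was compared between the lines by the interaction term over all 12 libraries. Of the 10 genes 1 was called higher in Rh30 than in RD (METTL1, difference of log2 effects 0.29 ± 0.06, limma adjusted p = 0.00346) and 1 lower (OS9, -0.33 ± 0.04, adjusted p = 0.000317), against 14.4% and 13.4% of the 18517 genes tested. For CDK4 the difference was -0.05 (95% interval -0.16 to 0.07, adjusted p = 0.575). For AGAP2 it was 0.25 (-0.05 to 0.55, adjusted p = 0.207), so the fall of AGAP2 was not shown to differ between the lines. The share of calls that were higher moved from 51.7% (2665 against 2486) to 40.7% (2079 against 3025) on the TPM scale.

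In RD, 7 of 24 genes of the CDK4 pathway were called higher and 8 lower, against 21.6% and 19.5% of all genes. They were led by CDKN2B (log2 difference 0.92), CCND3 (0.37) and RBL2 (0.33) on the higher side and by E2F2 (-0.97), CCNE2 (-0.93) and CDKN1C (-0.72) on the lower side. In Rh30, 3 of 23 were called higher and 5 lower, against 15.3% and 13.2% of all genes. Those higher were RBL2 (0.25), CDKN2D (0.24) and CCNE1 (0.18). Of those lower, CCND1 fell from 134.1 to 54.1 FPKM (log2 difference -1.29, adjusted p = 5.413e-05 in limma), followed by CDKN1A (-0.55) and RB1 (-0.37). The medians were -0.06 in RD and -0.04 in Rh30. CCND2 was also called lower in Rh30, with 178.7 FPKM against 220.1 with Scramble (log2 difference -0.30). The ratio of CDK4 to the summed D-type cyclins in Rh30, 25.1 to 26.0 with Scramble, was 31.1 to 32.4 with KDM3A-sh2. In RD, where it was 1.02 to 1.14 with Scramble, it was 0.933 to 0.998 with KDM3A-sh2. The interaction was called higher for 7 and lower for 6 of 24, against 14.4% and 13.4% of all genes.

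Of the relatives and partners, 9 of 20 tested were called higher and 5 lower in RD, against 21.6% and 19.5% of all genes, and 1 of 22 higher and 7 lower in Rh30, against 15.3% and 13.2%. The medians were 0.14 and -0.13. CTDSPL fell in both lines (-0.80 in RD and -0.73 in Rh30). WDR4 was called lower in RD (log2 difference -0.50, adjusted p = 0.000485 in limma), where METTL1 was called lower too. UGCG, at the start of the ganglioside pathway of B4GALNT1, rose in RD (0.32) and fell in Rh30 (-0.95). The interaction was called higher for 1 and lower for 9 of 22, against 14.4% and 13.4% of all genes.

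Around CDK4, 28 of 81 genes tested were called higher and 19 lower with KDM3A-sh2 in RD, against 21.6% and 19.5% of all genes, and 23 of 83 higher and 18 lower in Rh30, against 15.3% and 13.2%. Among genes averaging 10 FPKM or more in at least 1 group, the largest effects were those of INHBE (1.33), RNF41 (0.77) and MARS (0.69) on the higher side and of AGAP2 (-0.82), PRIM1 (-0.80) and ITGA7 (-0.71) on the lower side in RD. In Rh30 they were NDUFA4L2 (0.84), PAN2 (0.69) and SLC26A10 (0.60), and ARHGAP9 (-0.99), LRIG3 (-0.70) and LRP1 (-0.64). In the stretch from NXPH4 to XRCC6BP1 the median effect was 0.16 in RD and 0.09 in Rh30, against 0.02 and 0.06 in the rest of the window.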

How the data were processed

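Reads had been mapped by the authors with GSNAP (GRCh38), and the deposited FPKM were computed with Cufflinks, per the labels and the study's methods. The strand setting and annotation release are not given in the sources used here. The table held 66095 entries. Of repeated identifiers only the row with the largest mean was used (120 left out), and placeholder values in 17 genes, none a member, were treated as missing. GENCODE 29 held 86.3% of identifiers. Groups were compared with limma 3.58.1 in R 4.3.3 (lmFit, eBayes with trend) on log2(FPKM + 1), for genes averaging 1 FPKM or more across the fitted libraries, two-sided, with Benjamini-Hochberg adjustment over all genes and a threshold of 0.05. An exact permutation test of 3 against 3 cannot go below p = 0.1. The scripts were tested on simulated data. FPKM hold no read counts, so depth is known only relatively and no count model was used. Members and gene lists were chosen with earlier results of these data known. Named genes were the members, overlapping and adjacent genes, up to 3 called genes per list, comparison and direction, the 3 largest differences near CDK4 in each direction among genes averaging 10 FPKM or more in at least 1 group, the ends of its run and the 5 autosomal genes most like CDK4. Any of the relatives and partners could also be named beside its member. Named outside this rule were CDK6, RB1, RBL1 and RBL2 between the lines, CCND2 under KDM3A-sh2 in Rh30, and genes flagged for a closer look. GLI1 and DDIT3 were counted but not described. Alternatives were another pseudocount, other filters, TPM, median centring, 1 fit of all libraries, unlogged FPKM, a replicate block and leaving out libraries. Tables and figures were made in Python 3.11.15 (NumPy 2.4.6, pandas 2.3.3, matplotlib 3.10.9).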

Additional observations from a re-analysis of the deposited data

Results flagged for a closer look

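The log2 effect of KDM3A-sh2 on KDM3A itself was smaller in Rh30, by 0.37 (limma, interaction term over 12 libraries). By the same test, the response to KDM3A-sh2 was called different in the 2 lines for 2 of the 10 genes around CDK4. Over all genes, 14.4% were called higher in Rh30 and 13.4% lower, so such calls are common. The difference of log2 effects, Rh30 minus RD, was -0.33 for OS9 and 0.29 for METTL1. In the CDK4 pathway 7 of 24 genes were called higher and 6 lower, and only part of these are named here. The difference was -1.21 for CCND1, -0.44 for CCND3, -1.27 for CDKN2B and -0.81 for CDKN1A, whose effects were lower in Rh30. It was 0.82 for CDKN1C, 0.77 for E2F2, 0.48 for CCNE1 and 0.85 for CCNE2, whose effects were higher in Rh30. CDKN1C was under 0.4 FPKM on average in both Rh30 groups, where its effect was limited by the 1 FPKM added before the log. Among the relatives and partners 1 of 22 was called higher and 9 lower, again named only in part. The difference was -0.52 for TSPAN13 (limma, adjusted p = 0.0499), -0.33 for ERLEC1, 0.56 for WDR4 and -1.27 for UGCG. Within 3 Mb of CDK4 15 of 84 genes, members included, were called higher and 21 lower. Of the neighbours that are not members, part are named here. For them the difference was -0.81 for RNF41, 0.86 for PAN2, 0.90 for PRIM1, -0.88 for LRP1, -1.73 for INHBE, -1.61 for ARHGAP9, -0.93 for MARS and -0.55 for LRIG3.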

How the results depend on the processing

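The log2 differences between the lines kept their direction and call for all 10 members under every alternative run in which they were tested. For CDK4 they ran from 4.37 to 4.56 with Scramble and from 4.27 to 4.48 with KDM3A-sh2. The count of members called lower went from 1 to 0 in both line comparisons with a filter of 10 FPKM in 1 library, which removes KIF5A. The replicate block changed no call of a member: with it, 9 were called higher and 1 lower between the lines with either shRNA. Same-numbered libraries had correlated deviations of only -0.074 to 0.071, so the numbers were not read as pairs.

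For the effect of KDM3A-sh2, the count called lower in Rh30 went from 3 to 5 on the TPM scale, and the count called higher in Rh30 ran from 1 to 2 when single libraries were left out. For the interaction, unlogged FPKM gave 3 called higher and 4 lower, the TPM scale gave 2 lower, and leaving out single libraries gave 1 to 2 higher and 1 to 2 lower. The libraries that raised these counts were replicate 2 of Rh30 Scramble in Rh30, and for the interaction replicates 2 and 3 of RD Scramble, replicates 1 and 2 of RD KDM3A-sh2 and replicate 3 of Rh30 Scramble. The interaction passed the threshold for AVIL without replicate 2 of RD Scramble (0.38), for AGAP2 and TSPAN31 without replicate 1 and replicate 2 of RD KDM3A-sh2 (0.39 and 0.25), and for CTDSP2 without replicate 3 of either Scramble group (-0.15 each) and on the TPM scale (-0.19). Calls of lower genes in RD also moved. There B4GALNT1 passed the threshold in 11 of 14 alternatives, METTL1 in 13 of 14 and AVIL in 2 of 13. In Rh30 AVIL passed it in 13 of 14.

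Directions that turned belonged to values near 0 or to the unlogged scale. The CDK4 effect in RD was 0.0083 on the TPM scale and ran from -0.0584 to 0.0058 when single libraries were left out (positive without replicate 3 of RD Scramble). When single libraries were left out, the interaction ran from -0.0519 to 0.0198 for TSFM and from -0.0515 to 0.0455 for KIF5A, and over all alternatives on a log2 scale its lowest values were -0.0699 for TSFM and -0.126 for KIF5A. On unlogged FPKM, where an equal ratio gives a larger difference in the line with the higher level, the interaction was 0.672 FPKM for KIF5A, -9.87 for AGAP2, -30.3 for AVIL and 39.5 for CTDSP2.

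Values near 1 FPKM (AVIL in RD, KIF5A in Rh30) rest on few reads. FPKM without counts limit statements on such genes, and with 3 libraries of 1 line per subtype no result extends beyond these lines.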
